A study of Mus musculus with 4 samples.

Results

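The genes described here are 10 members of the BMP pathway: the ligands Bmp2, Bmp4 and Bmp7, the target genes Id1, Id2, Id3, Msx1 and Msx2, and the feedback inhibitors Bambi and Smad6. They were chosen by name, with earlier results of these data known. Each was matched by its Ensembl identifier in a table of 37620 genes with raw counts. All 10 members were also among the 15462 genes that the authors kept after normalization. RNA of R1 mouse embryonic stem cells (ESCs), a line of strain 129/Sv, was sequenced from 4 cultures with 1 library each: WT or Cripto KO cells, kept in serum/LIF or seeded at low density for 6 days in N2B27 medium that held basic FGF and 20 ng per ml of Activin A (F/A). F/A is the medium in which ESCs are converted into epiblast stem cells (EpiSCs). Cripto, encoded by Tdgf1, is the co-receptor of Nodal. A pair of independent Cripto KO clones was used in the study, and the labels do not say which of them was sequenced, so genotype cannot be told apart from the clone or the single culture. With 1 library per condition no value has a replicate error and no p-value is given. A gene was called higher or lower where the normalized values differed at least 2-fold. Each fold is followed by its exact Clopper-Pearson 95% interval from the raw counts scaled by library totals, which covers counting error only.

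BMPs are secreted ligands of the TGF-β superfamily that bind type I and type II receptor kinases. The receptors phosphorylate Smad1, Smad5 and Smad9, which enter the nucleus with Smad4 and switch on target genes, among them the Id and Msx genes and inhibitors that dampen the signal. In serum/LIF, BMP activity works with LIF to hold mouse ESCs undifferentiated through the Id proteins, whereas in the gastrulating embryo BMP signals pattern the epiblast towards posterior and extraembryonic fates.

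The libraries held between 15230856 and 17315442 counts on genes. Tdgf1 had 18714 raw counts in WT serum/LIF, 945 in Cripto KO serum/LIF, 1572 in WT F/A and 86 in Cripto KO F/A, so it was lower in the Cripto KO library of each culture. Odd counts were nearly missing from Cripto KO F/A, with 3 genes or 0.0160% of those detected, and made up 53.1% to 53.6% in the other libraries, so its counts were divided by 2 for every interval. Genes with counts numbered 18700 in Cripto KO F/A and 20801 to 21377 in the others, so its total may overstate its depth. Raw counts of this library are printed without the division. The summed level of 8 naive pluripotency markers was 4262 and 3868 CPM (counts scaled to a common library total) in WT and Cripto KO serum/LIF and 67.4 and 62.8 in F/A. The EpiSC markers summed to 1227 CPM in WT F/A and 638 in Cripto KO F/A, of which T alone made up 574 and 356. Of 6 measured, Fgf5, Otx2 and Cer1 were called lower in Cripto KO F/A than in WT F/A, and 0 higher. Over all genes 5.69% were called lower and 4.57% higher. Dnmt3b, Foxa2 and T stayed under 2-fold, at 0.685, 0.645 and 0.598 times the WT level.

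The promoters of some members are shown first, as a description of their sequence. They are RefSeq sequences of GRCm38.p6, from 250 bases before to 50 bases after the annotated start, read 5′ to 3′ on the strand of the gene. The counts use NCBIM37, and no position was converted between the builds. Of the members, 6 had an entry: Bmp4, Id2, Id3, Msx1, Msx2 and Smad6. Both strands were searched for GGCGCC, a GC-rich element bound by BMP-activated Smads, for CAGAC, the short Smad box, and for GTCTAGAC, its palindromic form, which holds no CAGAC. Matches are in capitals. The windows of Id2 (chr12:25096043-25096342, minus strand), Id3 (chr4:136143572-136143871, plus strand) and Smad6 (chr9:64022010-64022309, minus strand) are shown because they hold a match, and that of Msx1 (chr5:37824536-37824835, minus strand) because Msx1 had the highest fold between the genotypes in F/A.
Id2: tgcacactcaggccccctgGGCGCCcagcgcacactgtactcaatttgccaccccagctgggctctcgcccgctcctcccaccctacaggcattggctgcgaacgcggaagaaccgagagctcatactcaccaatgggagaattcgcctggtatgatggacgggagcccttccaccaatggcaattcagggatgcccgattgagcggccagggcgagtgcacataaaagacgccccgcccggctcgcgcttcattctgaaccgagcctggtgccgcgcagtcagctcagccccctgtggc
Id3: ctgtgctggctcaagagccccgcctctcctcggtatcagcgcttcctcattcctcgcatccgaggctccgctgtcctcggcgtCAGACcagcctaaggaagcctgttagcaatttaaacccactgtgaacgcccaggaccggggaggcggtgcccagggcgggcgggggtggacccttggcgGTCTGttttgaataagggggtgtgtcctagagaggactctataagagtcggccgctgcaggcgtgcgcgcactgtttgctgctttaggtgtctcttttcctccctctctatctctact
Smad6: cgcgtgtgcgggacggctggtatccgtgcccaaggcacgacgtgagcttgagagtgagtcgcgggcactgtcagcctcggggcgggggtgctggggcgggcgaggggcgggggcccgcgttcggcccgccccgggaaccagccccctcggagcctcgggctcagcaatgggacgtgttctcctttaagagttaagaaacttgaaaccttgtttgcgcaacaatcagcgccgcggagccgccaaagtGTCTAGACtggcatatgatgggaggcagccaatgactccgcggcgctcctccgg
Msx1: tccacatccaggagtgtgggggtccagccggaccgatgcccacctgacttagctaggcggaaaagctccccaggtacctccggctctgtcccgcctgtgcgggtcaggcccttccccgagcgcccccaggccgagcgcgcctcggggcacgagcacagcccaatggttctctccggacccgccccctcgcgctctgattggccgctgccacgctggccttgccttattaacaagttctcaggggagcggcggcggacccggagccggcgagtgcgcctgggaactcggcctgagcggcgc

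Id2 held GGCGCC from position −231, which 11.9% of 32851 promoter windows also hold. Id3 held CAGAC from positions −167 and −68, the latter on the opposite strand, and 49.6% of all windows hold this short box. Smad6 held the palindrome GTCTAGAC from position −4, directly at the start site, and it is found in 0.213% of all windows. At least 1 match was present in 3 of the 6 windows, against 56.3% of all windows. The windows of Bmp4, Msx1 and Msx2 did not hold these letters. These matches describe sequence and carry no information on binding in these cells.

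The first comparison asked how BMP genes behaved when WT ESCs were moved to F/A. Of the 10 members, 8 were called higher in F/A and 0 lower, against 22.1% of all genes higher and 20.9% lower. The exceptions were Bmp4 and Id2, although with a correction for transcript length Bmp4 passed 2-fold (log2 ratio 1.07) and Bambi did not (0.89). The median log2 ratio of the members was 2.0, and that of all genes was −0.07. In Cripto KO cells 9 members were called higher and 0 lower, against 19.9% of all genes higher and 19.4% lower, with a median of 3.0 against −0.07. Id2 was the exception. For every member but Id2, the values per kb in both F/A libraries lay above those in both serum/LIF libraries. Each library enters a comparison of cultures and a comparison of genotypes, so these comparisons are not independent of each other.

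**Figure D1:**
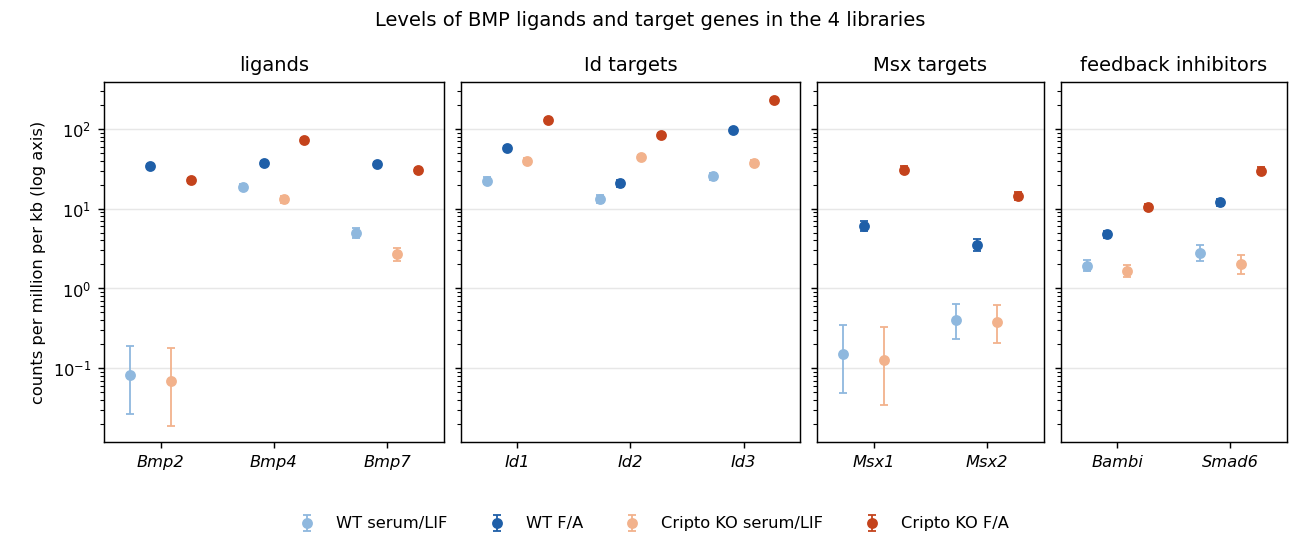
Level of each BMP gene in the 4 libraries, in CPM per kb of median transcript length on a log axis. Points are single libraries and bars are exact 95% Poisson intervals of the count. Id3 reached the highest level, 230 in Cripto KO F/A, and Bmp2, Msx1 and Msx2 stayed under 1 in both serum/LIF libraries.

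The second comparison set Cripto KO against WT cells within F/A. Here 8 members were called higher in Cripto KO and 0 lower, against 4.57% of all genes higher and 5.69% lower. The members called higher were Bmp4, Id1, Id2, Id3, Msx1, Msx2 and both feedback inhibitors, while Bmp2 and Bmp7 stayed under 2-fold. The median log2 ratio of the members was 1.28, beside 0.00 for all genes. The scaling moves the balance of the background, since with CPM 3.70% of all genes were at least 2-fold higher and 7.72% lower, and 7 members were then called because Bmp4 came to a log2 ratio of 0.98. In serum/LIF 1 member, Id2, was called higher in Cripto KO and 0 lower, against 2.86% of all genes higher and 2.73% lower. The counting interval excluded a ratio of 1 there for 5 members, and the median log2 ratio was 0.00. With CPM these shares were 1.97% and 3.36%. In bulk RNA, more cells of a type that uses a gene and more RNA of that gene per cell cannot be told apart.

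**Figure D2:**
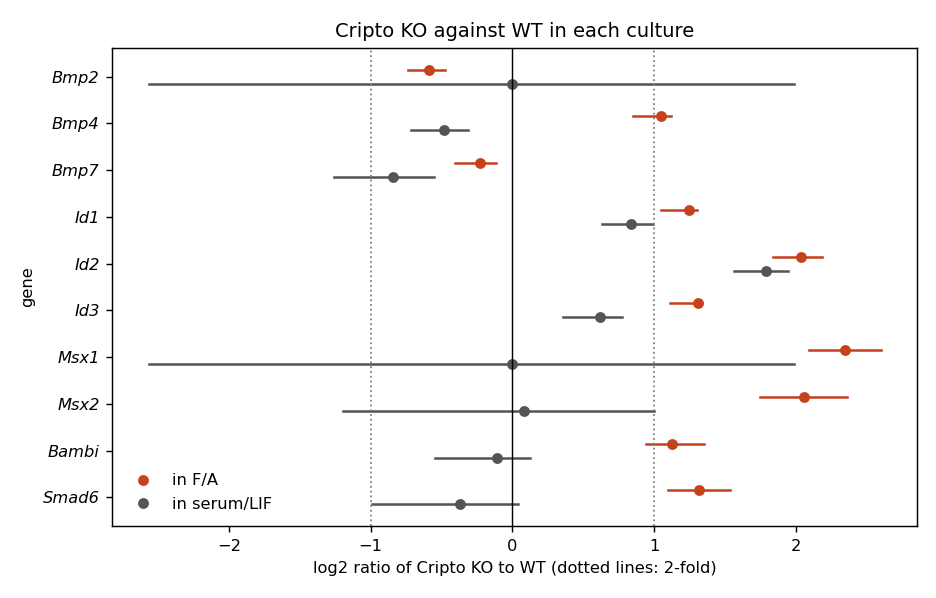
Log2 ratio of Cripto KO to WT for each BMP gene in F/A and in serum/LIF, from the normalized values. Bars are 95% Clopper-Pearson intervals of the raw counts scaled by library totals, and dotted lines mark 2-fold. In F/A 8 genes lie to the right of the 2-fold line, with Msx1 farthest at 2.35, whereas in serum/LIF Id2 is the only gene beyond it.

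Bmp2 (ENSMUSG00000027358, chr2:133377895-133388621, NCBIM37) encodes a ligand of the decapentaplegic subgroup made by early mesendodermal tissues. It had 5 raw counts in WT serum/LIF, 4 in Cripto KO serum/LIF, 1872 in WT F/A and 1270 in Cripto KO F/A. It was thus close to the detection floor of 3 counts in serum/LIF and abundant in both F/A libraries. The fold of F/A over serum/LIF was 511 (182 to 1312) in WT and 341 (127 to 1207) in Cripto KO cells. In F/A the Cripto KO level was 0.666 times the WT level (0.599 to 0.719), a difference beyond counting error but under 2-fold. In serum/LIF 4 and 5 counts cannot order the genotypes, since the interval of the ratio ran from 0.169 to 3.96.

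Bmp4 (ENSMUSG00000021835, chr14:47003195-47010344), the ligand that the extraembryonic ectoderm supplies to the neighbouring epiblast, was already transcribed in serum/LIF. It had 528 raw counts in WT serum/LIF, 347 in Cripto KO serum/LIF, 921 in WT F/A and 1882 in Cripto KO F/A. The order of the genotypes therefore differed between the cultures, with Cripto KO below WT in serum/LIF and above it in F/A. The ratio of Cripto KO to WT was 0.716 (0.609 to 0.803) in serum/LIF and 2.08 (1.80 to 2.17) in F/A. The latter passed 2-fold narrowly, and its interval included 2. Bmp4 rose 5.42-fold (4.95 to 6.36) from serum/LIF to F/A in Cripto KO cells, while in WT cells the ratio was 1.87 (1.78 to 2.21). Exons of Bmp4 overlap Gm15217 on the other strand, which had 23 counts over all 4 libraries.

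Bmp7 (ENSMUSG00000008999, chr2:172693513-172765822) encodes a ligand that can pair with Bmp2 or Bmp4 into heterodimers. It had 201 raw counts in WT serum/LIF, 101 in Cripto KO serum/LIF, 1282 in WT F/A and 1106 in Cripto KO F/A. Both F/A libraries lay above both serum/LIF libraries, and Cripto KO lay below WT in each culture. Bmp7 rose 7.01-fold (6.24 to 8.46) in WT and 10.7-fold (9.14 to 14.1) in Cripto KO cells. The ratio of Cripto KO to WT was 0.851 (0.754 to 0.923) in F/A and 0.559 (0.417 to 0.683) in serum/LIF, both under 2-fold.

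The balance of the ligands changed with culture and differed between the genotypes in F/A. Per kb of transcript, the 3 ligands summed to 23.7 CPM in WT serum/LIF and 15.8 in Cripto KO serum/LIF, of which Bmp4 made up 78.6% and 82.7%. In WT F/A the sum was 108 and the ligands were nearly even, with 34.3% from Bmp4, 33.6% from Bmp7 and 32.1% from Bmp2. Their intervals overlapped, so their order there was not resolved. In Cripto KO F/A the sum was 126, of which Bmp4 made up 58.0%, Bmp7 24.0% and Bmp2 18.0%. The sums of the F/A libraries thus lay within 2-fold of each other, and Bmp4 had the larger share in Cripto KO.

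**Figure D3:**
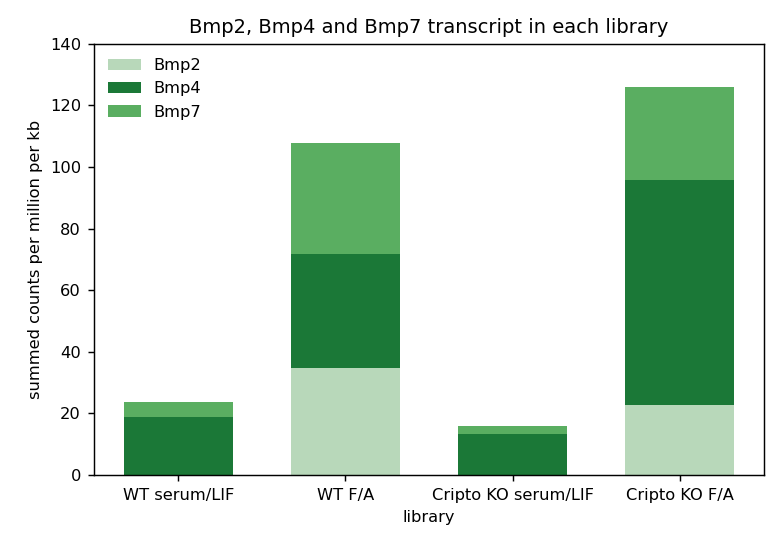
Summed level of Bmp2, Bmp4 and Bmp7 in each library, in CPM per kb of median transcript length, with a bar for each library stacked by ligand. The bars reach 23.7, 108, 15.8 and 126 from left to right, and Bmp4 is the main part of all of them except in WT F/A, where the ligands are nearly even.

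The Id genes encode helix-loop-helix proteins without a DNA-binding region that hold back differentiation factors of the basic helix-loop-helix class, and they are immediate targets of BMP-activated Smads. Id1 (ENSMUSG00000042745, chr2:152561987-152563146) had 409 raw counts in WT serum/LIF, 674 in Cripto KO serum/LIF, 922 in WT F/A and 2154 in Cripto KO F/A. Both F/A libraries were above both serum/LIF libraries, and Cripto KO was above WT in each culture. In F/A Id1 was 2.37-fold higher in Cripto KO (2.07 to 2.47), and in serum/LIF the ratio was 1.79 (1.55 to 1.99). It rose 2.43-fold (2.28 to 2.89) in WT and 3.23-fold (3.0 to 3.64) in Cripto KO cells on the move to F/A.

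Id3 (ENSMUSG00000007872, chr4:135699412-135701670) showed the same order of libraries as Id1. It had 325 raw counts in WT serum/LIF, 450 in Cripto KO serum/LIF, 1106 in WT F/A and 2672 in Cripto KO F/A. Cripto KO cells had 2.49 times the WT level in F/A (2.16 to 2.53) and 1.53 times in serum/LIF (1.28 to 1.71). The rise from serum/LIF to F/A was 3.69-fold (3.42 to 4.39) in WT and 5.99-fold (5.51 to 6.84) in Cripto KO cells. Per kb, Id3 was the most abundant member in every library except Cripto KO serum/LIF, although its interval overlapped that of Id1 in WT serum/LIF.

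Id2 (ENSMUSG00000020644, chr12:25778666-25780957) followed genotype more than culture. It had 291 raw counts in WT serum/LIF and 403 in WT F/A, against 921 in Cripto KO serum/LIF and 1676 in Cripto KO F/A. Both Cripto KO libraries were above both WT libraries, a pattern that Id2 alone had among the members. Outside the members, the BMP targets Id4 and Gata2 also had it. The ratio of Cripto KO to WT was 3.47 (2.95 to 3.86) in serum/LIF and 4.11 (3.57 to 4.54) in F/A. Between the cultures it stayed under 2-fold, at 1.54 (1.35 to 1.84) in WT and 1.83 (1.71 to 2.07) in Cripto KO cells. Per kb, Id2 came to 44.6 CPM in Cripto KO serum/LIF (41.8 to 47.6), beside 39.6 for Id1 (36.7 to 42.7) and 37.5 for Id3 (34.1 to 41.1). The interval of Id1 overlapped those of Id2 and Id3, so Id1 was not resolved from either. In WT serum/LIF Id2 was lowest of these 3 genes at 13.2 (11.8 to 14.8). Id1, Id2 and Id3 together came to 61.2 in WT serum/LIF, 122 in Cripto KO serum/LIF, 177 in WT F/A and 445 in Cripto KO F/A.

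Msx1 and Msx2 encode homeodomain repressors that BMP signals switch on in the primitive streak, the limb, the neural crest and the trophoblast lineage. Msx1 (ENSMUSG00000048450, chr5:38211724-38215822) had 5 raw counts in WT serum/LIF, 4 in Cripto KO serum/LIF, 180 in WT F/A and 944 in Cripto KO F/A. It was near the floor in serum/LIF and highest in Cripto KO F/A, where it was 5.11-fold above WT (4.27 to 6.06). The rise on the move to F/A was 49.2-fold (17.2 to 128) in WT and 252-fold (94.6 to 898) in Cripto KO cells, with wide intervals because of the few counts in serum/LIF.

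Msx2 (ENSMUSG00000021469, chr13:53562250-53568443) had 17 raw counts in WT serum/LIF, 15 in Cripto KO serum/LIF, 131 in WT F/A and 562 in Cripto KO F/A. As with Msx1, the serum/LIF libraries were low and alike in count, and the F/A libraries lay apart. Msx2 was 4.18-fold higher in Cripto KO F/A than in WT F/A (3.36 to 5.15), and rose 9.46-fold (5.27 to 15.5) in WT and 37.5-fold (23.1 to 70.1) in Cripto KO cells. In serum/LIF the ratio of Cripto KO to WT was 1.05 with an interval from 0.437 to 2.0, and 1.0 with an interval from 0.169 to 3.96 for Msx1, so differences within these intervals were not detectable at this depth. Per kb both genes together came to 0.549 CPM in WT serum/LIF, 0.503 in Cripto KO serum/LIF, 9.61 in WT F/A and 45.5 in Cripto KO F/A.

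The feedback inhibitors are themselves BMP targets. Smad6 (ENSMUSG00000036867, chr9:63800953-63869866), an inhibitory Smad that blocks the BMP branch, had 81 raw counts in WT serum/LIF, 55 in Cripto KO serum/LIF, 303 in WT F/A and 780 in Cripto KO F/A. It was 2.50-fold higher in Cripto KO F/A than in WT F/A (2.14 to 2.90). In serum/LIF the ratio was 0.772 with an interval that included 1 (0.504 to 1.03). Smad6 rose 4.31-fold (3.32 to 5.50) in WT and 14.0-fold (11.0 to 19.8) in Cripto KO cells. Its promoter window is the one that holds the rare palindrome shown above.

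Bambi (ENSMUSG00000024232, chr18:3507955-3516402), a membrane protein like a BMP type I receptor without its kinase, had 169 raw counts in WT serum/LIF, 137 in Cripto KO serum/LIF, 367 in WT F/A and 838 in Cripto KO F/A. The libraries stood in the same order as for Smad6. Bambi was 2.19-fold higher in Cripto KO F/A (1.92 to 2.55), with an interval that included 2, and in serum/LIF the ratio was 0.923 (0.684 to 1.09). It rose 2.44-fold (2.05 to 2.98) in WT cells, a call lost with the correction for transcript length, and 5.79-fold (5.20 to 7.72) in Cripto KO cells. Smad7, the inhibitory Smad that acts on both the BMP and the Activin branch, is no member and went the other way with culture: it fell in F/A to 0.273 times the serum/LIF level (0.258 to 0.321) in WT and to 0.370 times (0.340 to 0.443) in Cripto KO cells. In F/A its ratio of Cripto KO to WT was 1.22 (1.06 to 1.45).

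Set side by side, the log2 ratio of F/A to serum/LIF was higher in Cripto KO than in WT cells for 9 of 10 members. The difference was at least 1 for 5 of them, Msx1 at 2.35, Msx2 at 1.99, Smad6 at 1.69, Bmp4 at 1.54 and Bambi at 1.25, and 7.68% of all genes had a difference of at least 1. Id3 came to 0.70, Bmp7 to 0.61, Id1 to 0.41 and Id2 to 0.24. Bmp2 was the exception, at −0.59. The median of the members was 0.97, and that of all genes lay at −0.00. Bmp4, Msx1, Msx2, Smad6, Bambi, Id1 and Id3 passed 2-fold between the genotypes in F/A and not in serum/LIF. The Cripto KO values of Id1, Id2 and Id3 lay above WT in both cultures, with Id2 past 2-fold in each. Bmp2 and Bmp7 did neither: their log2 ratios of Cripto KO to WT were −0.59 and −0.23 in F/A, and 0.00 and −0.84 in serum/LIF. Whether the differences themselves exceed the spread between cultures was not tested, since there is 1 library per condition.

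**Figure D4:**
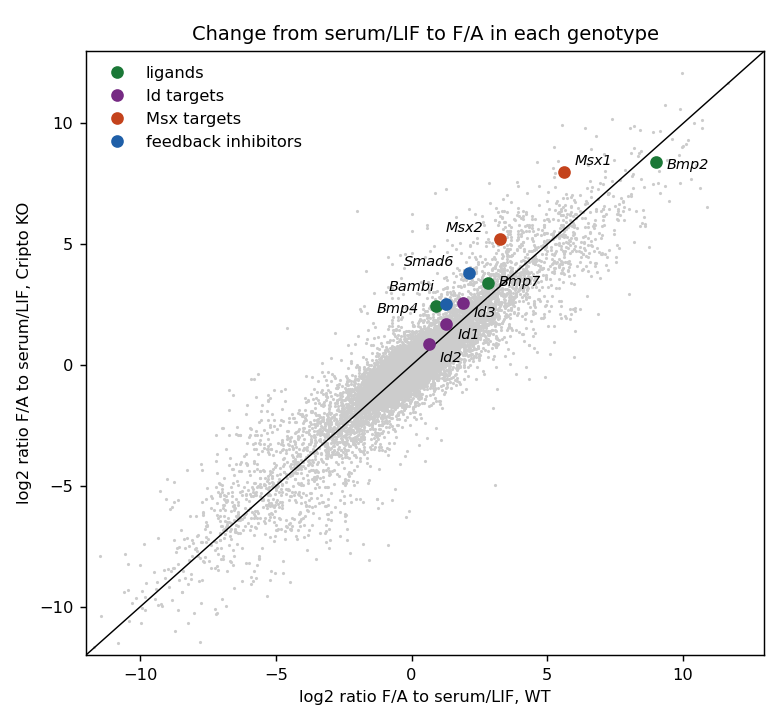
Log2 ratio of F/A to serum/LIF in WT (horizontal) and in Cripto KO cells (vertical) for all 15462 genes in grey, with the BMP genes coloured by role and the line of equal change. All BMP genes lie above the line except Bmp2, which is at 9.0 and 8.41, and Msx1 lies farthest above it, at 5.62 and 7.97.

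The rest of the BMP pathway was read from 6 lists of 64 genes in all, of which 50 were in the normalized table. These lists were also chosen with earlier results of these data known. Of the 40 that are no members, 10 were called higher in Cripto KO F/A than in WT F/A, 2 were called lower and 28 stayed under 2-fold, with a median log2 ratio of 0.09. Over all genes 4.57% were called higher and 5.69% lower in this comparison. Those called higher among the 40 were mostly targets. Of them, Gdf6, Sost and Msx3 passed the filter only through Cripto KO F/A. Of the 9 other target genes measured 6 were called higher and 0 lower. Together with the targets among the members, 11 of 14 were higher in Cripto KO F/A, and these 11 include Msx3. Hand1, a transcription factor of lateral mesoderm and trophoblast, had 1730 raw counts in Cripto KO F/A and 196 in WT F/A (log2 ratio 3.15). Atoh8, a basic helix-loop-helix factor, had 226 and 51 (log2 ratio 2.10). Gata2, Tfap2a, Dlx3 and Msx3 were also called higher, each with fewer than 200 counts. Msx3 had only 22 counts in Cripto KO F/A and 6 in WT F/A. Gata3 was not, with 252 counts in Cripto KO F/A and 238 in WT F/A.

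The machinery upstream of the targets differed less between the F/A libraries. Of 10 receptors and co-receptors, 1 was called higher in Cripto KO and 0 lower, namely Acvrl1, which had 40 and 18 counts. The type I receptor Bmpr1a had 2294 counts in Cripto KO F/A and 2366 in WT F/A, and the type II receptor Bmpr2 had 484 and 763, a ratio of 0.615 (0.529 to 0.710). Among the 4 transducers, Smad9 was called higher with 68 and 17 counts, while Smad1 was at 0.729 times (0.638 to 0.802) and Smad5 at 0.763 times (0.686 to 0.807) the WT level. All 10 receptors and co-receptors differed at least 2-fold between the cultures of WT cells, 8 with the higher value in F/A and 2 with the higher value in serum/LIF, against 22.1% and 20.9% of all genes. In Cripto KO cells 6 were higher in F/A, 1 was lower and 3 stayed under 2-fold, against 19.9% and 19.4% of all genes.

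Among the extracellular antagonists, which trap the ligands, 1 of 10 was called higher and 1 lower in Cripto KO F/A. Over all genes 4.57% were called higher and 5.69% lower, and the median log2 ratio of the antagonists was 0.02. The gene called lower was Cer1, a secreted inhibitor of Nodal, BMP and Wnt ligands, with 82 raw counts in Cripto KO F/A and 467 in WT F/A (log2 ratio −2.50). Sost was called higher on 20 and 6 counts, but the filter kept it only through Cripto KO F/A. Nog, the dedicated BMP antagonist noggin, had 1060 and 1019 counts, and Chrd, which encodes chordin, had 598 and 1052, a ratio of 0.554 (0.482 to 0.626) that stayed under 2-fold. Of the 4 other ligands measured, Gdf6, also kept only through Cripto KO F/A, was called higher on 34 and 11 counts and Bmp6 lower on 28 and 69.

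**Figure D5:**
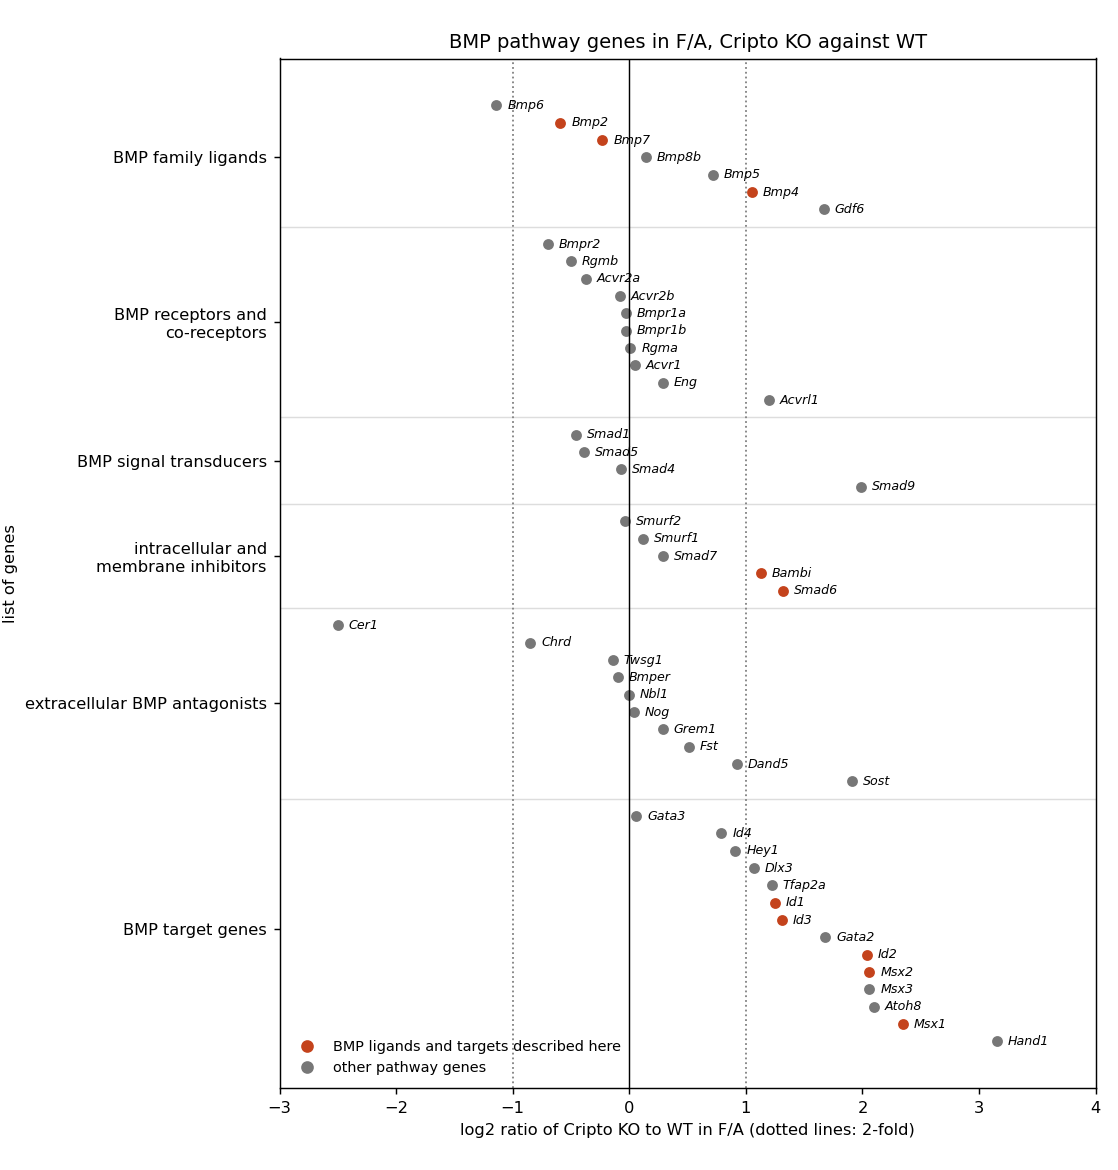
Log2 ratio of Cripto KO to WT in F/A for the 50 measured genes of 6 BMP pathway lists, ordered by value within each list, with the BMP ligands and targets described here in red and other pathway genes in grey. Dotted lines mark 2-fold. Of the 14 target genes 11 lie beyond 2-fold on the right, up to Hand1 at 3.15, while 9 of 10 receptors and 8 of 10 antagonists lie between the dotted lines. Msx3, Gdf6 and Sost passed the filter only through Cripto KO F/A.

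Markers of other cell types were read in the same comparison, in which 4.57% of all genes were called higher and 5.69% lower. Of 9 trophoblast markers measured, 2 were higher in Cripto KO F/A than in WT F/A (Cdx2 6.37-fold and Hand1) and 1 was lower (Eomes, at 0.205 times). The whole list summed to 122 and 87.0 CPM in WT and Cripto KO serum/LIF, 2506 in WT F/A and 2711 in Cripto KO F/A, which in F/A was mostly Krt8 and Krt18, keratins of simple epithelia in general, with 1280 and 957 CPM in WT F/A and 1391 and 1028 in Cripto KO F/A. Elf5, a defining gene of trophoblast stem cells, had at most 2 counts in any library. Of 8 mesoderm markers 2 were higher (Hand1 and Foxf1a) and 2 lower (Mixl1 and Tbx6), with sums of 7.05, 6.76, 686 and 617 in the same order of libraries, of which T alone made up 574 in WT F/A and 356 in Cripto KO F/A. Of 6 fibroblast markers, 3 were higher (Col1a1 2.90-fold, Col3a1 8.20-fold and Twist1 2.75-fold) and 0 lower, and their sum was 255 in Cripto KO F/A against 96.0 to 101 in the other libraries. Primitive endoderm markers had 0 of 6 higher and 1 lower, with sums of 20.7, 17.3, 225 and 284. Hand1 stands in 3 of the lists used here, and Gata3, Gata4, T and Cer1 stand in 2 each. The part of such cells in the levels of the BMP genes was not tested.

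Genes whose pattern over the 4 libraries was most like that of a member were found among 9659 genes with a mean normalized value of at least 200, by the Euclidean distance between log2 values after each gene was centred on its own mean. The nearest to Id1 were Gyg at 0.30, Gas1 at 0.35 and Jdp2 at 0.36 log2 units. The nearest to Bmp4 were Morc4 at 0.18, Itm2c at 0.23 and Itm2a at 0.24, and Bambi ranked at 9 with 0.36. For Msx2 they were Meis2 at 0.40, Pmp22 at 0.44 and Cd248 at 0.50. These likenesses rest on 4 libraries and are a description. No other member was among the 3 nearest genes of Id1, Bmp4 or Msx2.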

How the data were processed

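RNA of 4 cultures was sequenced on an Illumina HiSeq, 1 library each. For the deposited count table, the authors mapped read pairs to NCBIM37 (mm9) using TopHat2 2.0.13 and assigned them to genes using HTSeq 0.6.1p1. The strand option is not given in the sources used here, so sense and antisense reads cannot be told apart. The authors also deposited a normalized signal, made by full quantile normalization of these counts followed by a filter on low values. Recomputing the quantile normalization from the raw counts gave values equal to the deposited signal, with 100% within 1%.

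Log2 ratios of the normalized values were taken over all genes, setting 0 to 0.5, and the threshold for a call was a 2-fold difference. Intervals of ratios are Clopper-Pearson and those of levels per kb are exact Poisson, all at 95.0%. The floor was 3 counts, or 6 in Cripto KO F/A. The simulated replicates of the study were not used. Levels per kb use the median transcript length of an Ensembl annotation of NCBIM37, and symbols matched 98.9% of genes. Named were the 10 members, Tdgf1, the 3 genes nearest to Id1, Bmp4 and Msx2, and pathway genes past 2-fold in F/A with at least 200 raw counts, not halved. Others were named after their values were seen. The members and lists were chosen with earlier results of these data known. Alternatives were CPM (counts scaled by library totals), TMM (edgeR 4.0.16), DESeq2 1.42.0 size factors (R 4.3.3), an offset of 5 on each value, genes with a mean of 50 counts or more, no filter (on CPM), a fold of at least 3 and a correction for transcript length over 501 genes. A further alternative asked that the counting interval exclude 1. The halving of the Cripto KO F/A counts before normalization was chosen after seeing the data. Python 3.11.15, numpy 2.4.6, scipy 1.17.1, pandas 2.3.3 and matplotlib 3.10.9 were used, and the scripts were tested on simulated data.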

Additional observations from a re-analysis of the deposited data

Results flagged for a closer look

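In 3 members the difference between Cripto KO and WT had opposite signs in F/A and in serum/LIF. For Bmp4 the log2 ratio was 1.05 in F/A and −0.48 in serum/LIF, a gap of 1.54. Smad6 had 1.32 and −0.37, a gap of 1.69. Bambi had 1.13 and −0.11, a gap of 1.25. In serum/LIF the counting interval of the ratio included 1 for Smad6 and Bambi, but not for Bmp4. The difference between the cultures was not tested for any of these genes, as each condition has 1 library.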

How the results depend on the processing

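The number of members called in F/A, Cripto KO against WT, was 8 and came to 3 when a fold of at least 3 was asked for, which by construction leaves out members between 2-fold and 3-fold. It was 7 with CPM and with DESeq2 size factors, because Bmp4 came to a log2 ratio of 0.98 to 0.99. The setting without the filter was run on CPM, so it gave the same 7 members and does not show an effect of the filter. The counts of members called in the other comparisons kept within 1.5 times of their main value under every alternative run, but not always for the same members: with the correction for transcript length in WT cells, F/A against serum/LIF, Bambi came to 0.89 and lost its call while Bmp4 came to 1.07 and gained one. Of 320 log2 ratios of single members under alternatives, 312 stayed within the counting interval around the main value, 8 moved beyond it and 0 reversed a called direction. The 320 include ratios that could not move: those with a mean of 50 counts or more equal the main values by construction. Those without the filter repeat the CPM values. All 8 that moved did so under the correction for transcript length. In serum/LIF the ratios of Cripto KO to WT of Msx1 (−0.23 to 0.02) and Msx2 (−0.09 to 0.08) took both signs, so they have no direction. Halving the counts of Cripto KO F/A before normalization changed no count of members called. No paired analysis was possible because there is 1 library per condition and no replicate number, and for the same reason no library could be left out. Depth limits Bmp2, Msx1 and Msx2 in serum/LIF, with 4 to 17 counts.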
